A study of Mus musculus with 18 samples.

Results

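Undifferentiated adult stem cells of the Stra8-EGFP/Rosa26 background were compared with undifferentiated embryonic stem (ES) cells of the same background, here called adult Stra8 and ES Stra8 cells. The comparison rests on 6 of the 18 arrays of the series, 3 adult Stra8 and 3 ES Stra8 arrays, and covers the 19938 genes that have a probe set naming them alone, out of 35556 probe sets in all. The other 12 arrays were undifferentiated adult and ES cells of the 129SV background and differentiated adult and ES cells of that background, 3 of each. The series title calls the adult cells multipotent adult germline stem cells. Both Stra8 groups carry the background label Stra8-EGFP/Rosa26, so the transgene and the Rosa26 allele named there are shared by both sides of the comparison, and no gene for EGFP was read. The labels give no age, sex, cell line, culture condition or number of lines behind the replicates, and do not say whether the cells grew on feeder cells. The replicates are called biological. The p-values rest on the spread between such samples within a group, pooled over all 6 groups of the series. Because the labels name no lines, differences between lines cannot be told apart from differences of origin. Below, an effect of origin means only adult minus ES samples.

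Adult germline stem cells are grown from spermatogonial cells of the testis and in culture take on many traits of ES cells, which come from the inner cell mass of the blastocyst. Both can express the transcription factors Pou5f1, Sox2 and Nanog that hold cells in a pluripotent state. The series title states the question behind the comparison, which is how alike the transcriptomes of the cell types are. The values are RMA signals on the log2 scale, made from arrays of short probes, so a level is a brightness and a difference of 1 is a 2-fold change. Levels of different genes cannot be set against each other, because their probes differ.

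Adult Stra8 and ES Stra8 cells differed in many genes by small amounts. Of the 19938 genes, 5638 (28.3%) were called different at an adjusted p under 0.05 in limma's moderated test, 2635 of them (13.2%) higher and 3003 (15.1%) lower in adult Stra8 cells. The median size of a called difference was 0.346 on the log2 scale, and 4291 called genes (76.1%) differed by less than 0.5. A difference of at least 2-fold was found for 97 genes higher (0.487%) and 53 genes lower (0.266%) in adult Stra8 cells. The 3 adult Stra8 arrays did not overlap the 3 ES Stra8 arrays for 9496 genes (47.6%). The confidence interval of the difference, at the 95% level, lay within 2-fold for 98.1% of genes. Over all genes the median difference was -0.0033.

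The arrays of each group lay close together. Pairs of adult Stra8 arrays correlated with a mean r of 0.9975 across genes, pairs of ES Stra8 arrays with 0.9978, and pairs across the groups with 0.9898. Genes are not independent replicates, so these values only describe the arrays. Calls were spread unevenly over signal strength. Among the 4985 dimmest genes 182 were higher and 60 lower in adult Stra8 cells, and among the 4985 brightest 901 were higher and 1385 lower. No background level or detection call was available, so no dim gene could be called present or absent.

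The 2 largest increases were in Srgn and Cubn. Srgn, the core protein of serglycin proteoglycan in secretory granules, had levels of 11.64, 11.72 and 11.61 in adult Stra8 cells, against 7.72, 7.69 and 7.85 in ES Stra8 cells. The difference was 3.90 ± 0.08 (SE, adjusted p = 2.77e-14), which is 15-fold. Cubn, the receptor cubilin that takes up proteins from the fluid around visceral endoderm and kidney cells, stood at 9.22, 9.21 and 9.03 in adult Stra8 cells and at 6.06, 5.88 and 5.92 in ES Stra8 cells (3.20 ± 0.07, adjusted p = 5.62e-14). Its partner Lrp2, the receptor megalin, had 10.44, 10.35 and 10.32 in adult Stra8 cells against 8.83, 8.81 and 8.84 in ES Stra8 cells (1.55 ± 0.06). Dab2, the adaptor that links megalin to clathrin, was higher by 1.31 and is named here after its value was seen. Adult and ES arrays lay apart for all of these genes, as they did for 47.6% of all genes. For Srgn, Cubn and Lrp2 this was fixed in advance, since the largest changes were picked among genes with arrays apart.

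Most of the other large increases were in single genes of varied function. Tspan8, a tetraspanin of the cell surface, had 8.41, 8.36 and 8.36 in adult Stra8 cells and 6.21, 6.00 and 6.15 in ES Stra8 cells (2.26 ± 0.08). The kinase Pim2, which promotes cell survival, had 11.11, 11.11 and 10.93 in adult Stra8 cells against 9.26, 9.11 and 9.23 in ES Stra8 cells (1.85 ± 0.10). Car4, a membrane-bound carbonic anhydrase, reached 9.55, 9.61 and 9.48 in adult Stra8 cells and 7.82, 7.68 and 7.97 in ES Stra8 cells (1.73 ± 0.08). The prostaglandin transporter Slco2a1 was higher by 1.54 ± 0.07 and the peptidase Dpp4 by 1.53 ± 0.08. Nxf7, a member of the family of mRNA export factors, was higher by 1.62 ± 0.13 and the unnamed transcript 4930591A17Rik by 1.63 ± 0.13. Olfr836, an odorant receptor gene (2.22 ± 0.21), and Nlrp4a, of a family known from oocytes (1.96 ± 0.09), belong to families of similar genes whose signal may be shared between members, which was not tested.

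**Figure D1:**
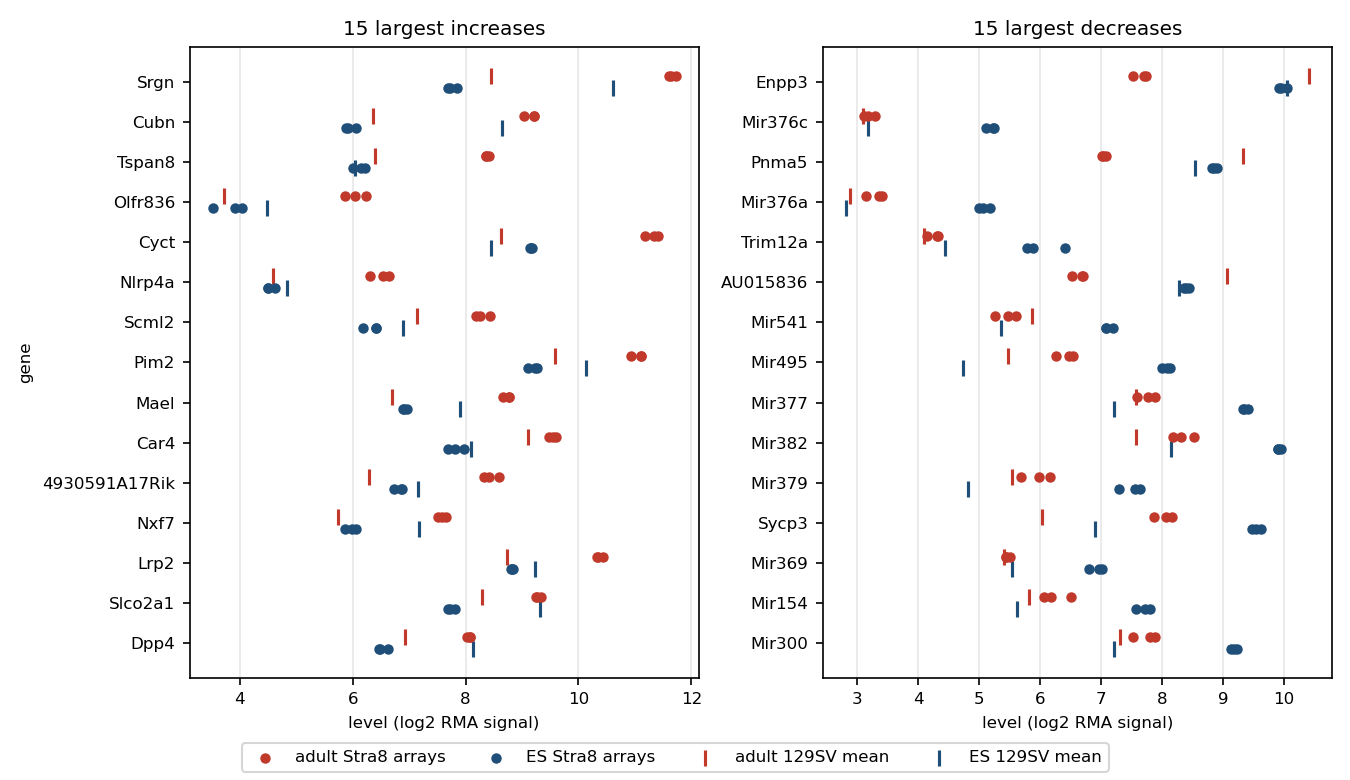
Levels (log2 RMA signal, horizontal axis) of the 15 genes with the largest increases (left panel) and the 15 with the largest decreases (right panel) in adult Stra8 cells; dots are the 3 adult Stra8 arrays (red) and the 3 ES Stra8 arrays (blue), and vertical ticks are the means of adult 129SV (red) and ES 129SV (blue) cells. The red and blue dots are apart for every gene because the genes were picked among those with arrays apart. Differences run from Srgn (3.90) to Dpp4 (1.53) and from Enpp3 (-2.31) to Mir300 (-1.45). The ticks of the 129SV cells often lie the other way round or on the same side.

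Genes of the male germ line stood among these increases too. Cyct, the testis form of cytochrome c, had 11.17, 11.33 and 11.40 in adult Stra8 cells against 9.14, 9.17 and 9.15 in ES Stra8 cells (2.14 ± 0.14). The difference of Cycs, the cytochrome c of other tissues, was 0.13 ± 0.14 (adjusted p = 0.621). Scml2, a Polycomb protein of spermatogonia, had 8.26, 8.44 and 8.18 in adult Stra8 cells and 6.42, 6.19 and 6.42 in ES Stra8 cells (1.95 ± 0.11). Mael, which takes part in the piRNA pathway that silences transposons in germ cells, had 8.66, 8.76 and 8.77 in adult Stra8 cells and 6.90, 6.89 and 6.96 in ES Stra8 cells (1.82 ± 0.10).

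The germline and meiosis list as a whole moved more often up than down. Among 61 genes measured, 26 rose, 10 fell and 25 were not called, with a median of 0.09, beside 13.2% higher and 15.1% lower over all genes. The counts of every list below are to be read beside the same shares. Increases included the meiotic axis protein Hormad1 (1.46) and the transverse filament protein Sycp1 (1.46), both named after their values were seen. They also included Sohlh2, a transcription factor of spermatogonia (1.01 ± 0.06), the helicase Ddx4 (0.58 ± 0.08) and the RNA-binding protein Dazl (0.47 ± 0.10). Sycp3, a further protein of the meiotic chromosome axis, went the opposite way, with 7.87, 8.16 and 8.07 in adult Stra8 cells against 9.48, 9.54 and 9.63 in ES Stra8 cells (-1.52 ± 0.18, adjusted p = 8.39e-06). Stra8, the retinoic acid target whose promoter gives the background its name, had 5.83, 5.89 and 5.89 in adult Stra8 cells and 5.46, 6.17 and 5.90 in ES Stra8 cells, which overlap (0.03 ± 0.12, adjusted p = 0.926).

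Promoters of germline genes are known to be silenced by DNA methylation and by repressors that bind E2F sites and E-boxes, so both letter strings were counted in the window from 250 bases before to 50 after each gene start (RefSeq, GRCm38.p6). The E-box CACGTG, which reads the same on both strands, was in the window of 12 of 25 germline genes called higher (48.0%), of 5 of the 28 other germline genes (17.9%) and of 1481 of 15563 tested genes (9.52%). The E2F form GGCGGGA, searched on both strands, was in 4 of the 25, in 6 of the 28 (21.4%) and in 18.1% of tested genes. It shares no overlapping match with the E-box. Over all 32851 windows of this length the shares were 7.15% for the E-box and 11.3% for the E2F form. A gene with several windows was counted if any of them held the string. The E-box holds a CG pair, and the sets differed in their median count of CG pairs. It was 21 in germline genes called higher, 16 in the other germline genes, 16 in tested genes and 7 over all windows. Of the 7 germline genes higher at least 2-fold, 4 held neither string in this window, Cyct, Scml2, Sohlh2 and Smc1b, a meiotic cohesin (1.10, named after its value was seen). Among all 74 genes higher at least 2-fold that have a window, the E-box was in 8 (10.8%). The 4 windows below are those of the germline genes changed at least 2-fold that hold the E-box, 3 higher and 1 lower in adult Stra8 cells, with the strings in capitals, and show that the E-box lies at different distances from the start and also in a gene that was lower. A match is a string of letters and not evidence of binding.
Mael (chr1:166238695-166238994, minus strand): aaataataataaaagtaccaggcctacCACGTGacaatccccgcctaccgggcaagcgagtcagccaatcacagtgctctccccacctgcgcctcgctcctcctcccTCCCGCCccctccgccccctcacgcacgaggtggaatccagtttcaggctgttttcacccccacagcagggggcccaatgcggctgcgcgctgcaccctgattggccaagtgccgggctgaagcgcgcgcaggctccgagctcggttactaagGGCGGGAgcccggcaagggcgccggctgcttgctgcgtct
Hormad1 (chr3:95559427-95559726, plus strand): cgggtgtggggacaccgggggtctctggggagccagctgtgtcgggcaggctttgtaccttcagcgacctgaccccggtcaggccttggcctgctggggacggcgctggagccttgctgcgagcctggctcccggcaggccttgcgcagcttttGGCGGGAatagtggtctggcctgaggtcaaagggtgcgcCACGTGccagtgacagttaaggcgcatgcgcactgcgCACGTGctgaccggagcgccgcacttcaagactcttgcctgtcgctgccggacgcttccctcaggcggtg
Sycp1 (chr3:102936051-102936350, minus strand): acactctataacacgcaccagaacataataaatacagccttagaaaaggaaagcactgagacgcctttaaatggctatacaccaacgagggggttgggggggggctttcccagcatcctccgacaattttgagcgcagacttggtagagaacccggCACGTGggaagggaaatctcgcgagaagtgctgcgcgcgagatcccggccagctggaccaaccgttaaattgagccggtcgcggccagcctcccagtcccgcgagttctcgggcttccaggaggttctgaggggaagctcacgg
Sycp3 (chr10:88459337-88459636, plus strand): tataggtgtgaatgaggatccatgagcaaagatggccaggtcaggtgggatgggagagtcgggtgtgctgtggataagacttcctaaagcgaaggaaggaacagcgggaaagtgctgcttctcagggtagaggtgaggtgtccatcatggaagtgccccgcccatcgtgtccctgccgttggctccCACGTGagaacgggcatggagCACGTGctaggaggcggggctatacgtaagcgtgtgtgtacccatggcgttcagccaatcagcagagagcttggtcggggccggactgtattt

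Among the decreases, 10 of the 15 largest were miRNA genes of a single imprinted region, the stretch from Dlk1 to Dio3 on chromosome 12 (chr12:109452485-110281097, GRCm38.p6). In this region the long noncoding RNAs Meg3 and Rian and most of the miRNAs are transcribed from the maternal chromosome, and the protein-coding genes Dlk1, Rtl1 and Dio3 from the paternal one. The region was singled out after these values were seen. The 12 sequences below are mature miRNAs (RefSeq) from the 12 genes of the region described as lower below, 1 arm of each, with bases 2 to 8, the seed that pairs with target RNAs, in capitals. The array does not tell the arms of a miRNA gene apart, nor a mature miRNA from its precursor. Over the region's 40 miRNA genes, 76 mature sequences held 74 different seeds, and only the pairs miR-379-3p with miR-411-3p and miR-376b-5p with miR-376c-5p shared one.
mmu-miR-379-3p: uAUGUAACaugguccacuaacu
mmu-miR-411-3p: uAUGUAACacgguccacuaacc
mmu-miR-376b-5p: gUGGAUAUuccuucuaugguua
mmu-miR-376c-5p: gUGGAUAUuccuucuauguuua
mmu-miR-376a-3p: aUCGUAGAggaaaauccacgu
mmu-miR-495-3p: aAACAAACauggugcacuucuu
mmu-miR-541-5p: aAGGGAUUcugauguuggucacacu
mmu-miR-377-3p: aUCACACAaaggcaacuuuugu
mmu-miR-382-5p: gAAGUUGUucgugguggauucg
mmu-miR-369-3p: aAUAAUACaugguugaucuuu
mmu-miR-154-5p: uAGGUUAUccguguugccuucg
mmu-miR-300-3p: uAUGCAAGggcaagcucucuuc

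The miRNA genes of the region were lower in adult Stra8 cells almost without exception. Mir376c had 3.11, 3.17 and 3.29 in adult Stra8 cells, against 5.11, 5.24 and 5.22 in ES Stra8 cells (-2.00 ± 0.26, adjusted p = 2.49e-05). The neighbouring Mir376a had 3.35, 3.40 and 3.14 in adult Stra8 cells and 5.0, 5.06 and 5.18 in ES Stra8 cells (-1.78 ± 0.33, adjusted p = 0.000543). Both adult means lie at the dim end of the array. Brighter genes gave differences of like size. Mir377 had 7.88, 7.77 and 7.59 in adult Stra8 cells and 9.42, 9.33 and 9.35 in ES Stra8 cells (-1.62 ± 0.12). Mir382 had 8.52, 8.18 and 8.31 in adult Stra8 cells and 9.91, 9.96 and 9.90 in ES Stra8 cells (-1.59 ± 0.10). The differences were -1.67 for Mir541, -1.65 for Mir495, -1.56 for Mir379, -1.46 for Mir369, -1.46 for Mir154 and -1.45 for Mir300. Mir376b (-1.28) and Mir411 (-1.10), named for their shared seeds, were lower too.

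Of the 47 measured genes from Dlk1 to Dio3, 43 were lower, 0 were higher and 4 were not called, and 25 were lower at least 2-fold. Of the 40 miRNA genes 38 were lower, 23 of them at least 2-fold, with a median of -1.04, and only Mir494 (-0.28) and Mir666 (-0.05) were not called. The 257 miRNA genes measured elsewhere split into 19 higher and 16 lower, with a median of 0.01 and 0 lower by 2-fold. The mean level over the 40 genes was 7.03, 6.99 and 6.92 in adult Stra8 arrays and 8.06, 8.0 and 8.06 in ES Stra8 arrays. It was 6.73, 6.79 and 6.78 in adult 129SV arrays and 6.56, 6.59 and 6.58 in ES 129SV arrays. ES Stra8 cells thus had the highest mean of the 4 undifferentiated groups, as they did for 39 of the 40 genes singly.

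In Stra8 cells the host RNAs of the region changed with its miRNAs and the paternally expressed genes at its ends were not called. Meg3 had 11.84, 11.87 and 11.88 in adult Stra8 cells and 12.75, 12.65 and 12.70 in ES Stra8 cells (-0.84 ± 0.05, adjusted p = 4.93e-09). Rian, which carries small nucleolar RNAs, had 9.15, 8.94 and 8.90 in adult Stra8 cells and 10.14, 10.12 and 10.10 in ES Stra8 cells (-1.12 ± 0.07). Between adult and ES 129SV cells Rian was lower too (-0.97), whereas Meg3 was higher (0.45). Rtl1, a retrotransposon-derived gene, fell by 0.70 ± 0.11; a transcript antisense to Rtl1 runs through it, and the strand its probes read was not checked. Dlk1, a membrane protein of the Notch ligand family, was at 0.14 ± 0.06 (adjusted p = 0.113). Dio3, which inactivates thyroid hormone, was at -0.24 ± 0.11 (adjusted p = 0.122). Both were called with the 6 Stra8 arrays fitted alone and with array weights, at adjusted p between 0.0139 and 0.0410.

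**Figure D2:**
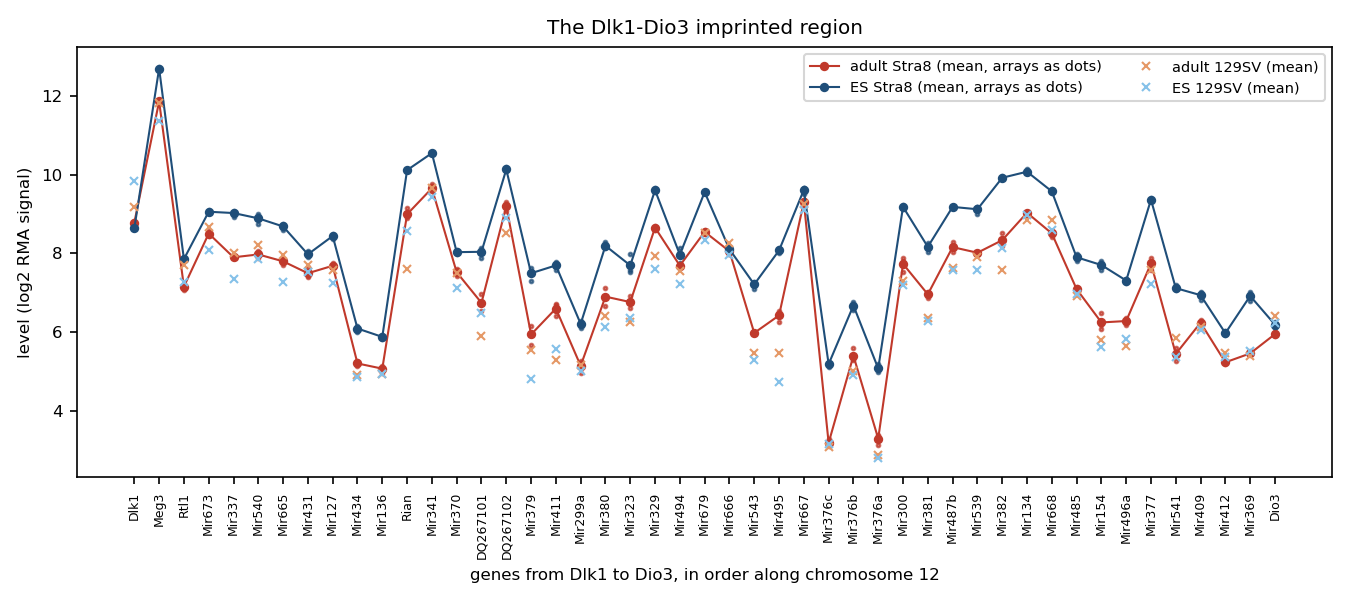
Levels (log2 RMA signal, vertical axis) of the 47 measured genes from Dlk1 to Dio3 in their order along chromosome 12; lines join the means of adult Stra8 (red) and ES Stra8 (dark blue) cells, small dots are their arrays, and crosses are the means of adult 129SV (orange) and ES 129SV (light blue) cells. The red line runs below the dark blue one at every gene except Dlk1, and most crosses lie near or below the red line.

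The remaining large decreases were in genes of varied function. Enpp3, an enzyme that splits extracellular nucleotides, had 7.74, 7.71 and 7.53 in adult Stra8 cells and 9.95, 9.93 and 10.05 in ES Stra8 cells (-2.31 ± 0.08, adjusted p = 2.72e-11). Pnma5, a gene of the X chromosome from a family derived from retrotransposons, had 7.02, 7.09 and 7.04 in adult Stra8 cells and 8.85, 8.83 and 8.91 in ES Stra8 cells (-1.81 ± 0.07). AU015836, an unnamed gene of the X chromosome, had 6.69, 6.71 and 6.52 in adult Stra8 cells and 8.44, 8.37 and 8.40 in ES Stra8 cells (-1.76 ± 0.07). Trim12a, of the TRIM family with close copies in the genome and a member of the interferon list, had 4.14, 4.32 and 4.30 in adult Stra8 cells and 5.88, 5.79 and 6.41 in ES Stra8 cells (-1.78 ± 0.15).

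Genes of naive pluripotency, the state of the early epiblast, were more often lower than higher in adult Stra8 cells, and Pou5f1 was not called. Of 33 measured genes 21 were lower, 1 was higher and 11 were not called, with a median of -0.38. Nanog had 11.57, 11.53 and 11.51 in adult Stra8 cells and 12.25, 12.28 and 12.28 in ES Stra8 cells (-0.74 ± 0.05, adjusted p = 2.40e-08). Pou5f1, the core factor of pluripotency, had 12.29, 12.27 and 12.23 in adult Stra8 cells and 12.26, 12.26 and 12.33 in ES Stra8 cells, which overlap (-0.02 ± 0.10, adjusted p = 0.920). Dppa4, a chromatin protein of early embryos, had 9.29, 9.24 and 9.17 in adult Stra8 cells and 10.16, 10.13 and 10.13 in ES Stra8 cells (-0.91 ± 0.07). The repressor Prdm14 fell by 0.86 ± 0.06, the zinc finger gene Zfp42 by 0.65 ± 0.15, Klf4 by 0.39 ± 0.06 and Sox2 by 0.34 ± 0.11 (adjusted p = 0.0273). The call of Sox2 was lost when any ES Stra8 array, or adult Stra8 replicate 2 or 3, was left out, with adjusted p between 0.0589 and 0.0920. The summed linear signal of the list ran from 71740 to 72910 in adult Stra8 arrays and from 89490 to 91870 in ES Stra8 arrays. The mean level of the list was 10.39 in adult Stra8 and 10.78 in ES Stra8 cells. It was 10.48 in adult 129SV and 10.45 in ES 129SV cells, so ES Stra8 cells stood apart from the other undifferentiated groups.

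Genes that mark the primed epiblast, the state that follows naive pluripotency around implantation, were more often higher than lower. Of 18 measured genes 10 were higher, 2 were lower and 6 were not called, with a median of 0.32. The mean level of the list was 8.75 in adult Stra8 and 8.35 in ES Stra8 cells. It was 8.76 in adult 129SV and 8.81 in ES 129SV cells, so here too ES Stra8 cells stood apart. Dnmt3b, which sets new DNA methylation, had 11.08, 11.16 and 11.06 in adult Stra8 cells and 9.64, 9.68 and 9.66 in ES Stra8 cells (1.44 ± 0.06, adjusted p = 9.02e-11). Lef1, a transcription factor of Wnt signalling, had 8.51, 8.59 and 8.57 in adult Stra8 cells and 7.51, 7.42 and 7.44 in ES Stra8 cells (1.10 ± 0.07). The zinc finger gene Zic2 was higher by 0.88 ± 0.08 and the growth factor Fgf5 by 0.66 ± 0.08. Among genes of DNA methylation, 4 of 17 were higher and 8 lower, with Dnmt3a higher by 0.44 ± 0.06 and Tet2, which oxidises methylcytosine, at -0.84 ± 0.07.

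Fibroblast genes were higher in adult Stra8 cells in nearly every case. Of 30 measured genes 29 were higher and 0 lower, with a median of 0.70, and Tcf21 (0.13, adjusted p = 0.521) was not called. The smooth muscle actin Acta2 had 11.77, 11.77 and 11.78 in adult Stra8 cells and 10.71, 10.65 and 10.72 in ES Stra8 cells (1.08 ± 0.05). The collagen gene Col5a2 had 10.37, 10.32 and 10.31 in adult Stra8 cells and 9.25, 9.24 and 9.28 in ES Stra8 cells (1.08 ± 0.06). Lum, a proteoglycan of connective tissue, was higher by 1.10 ± 0.12, the actin-binding protein Tagln by 1.03 ± 0.07 and the proteoglycan Dcn by 0.75 ± 0.05. The summed linear signal of the 30 genes ran from 76300 to 77900 in adult Stra8 arrays and from 49160 to 50020 in ES Stra8 arrays. In whole-culture RNA, more cells of a type and more RNA of its genes per cell cannot be told apart, and the part of fibroblast RNA in the other differences was not tested.

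Matrix and surface genes, some of which fibroblasts also express, were more often higher than lower too. Of 19 metalloproteinases and their inhibitors 16 were higher and 1 lower (median 0.66). Adamts9, a secreted protease that splits proteoglycans, had 10.15, 10.04 and 10.01 in adult Stra8 cells and 8.92, 8.78 and 8.98 in ES Stra8 cells (1.17 ± 0.06). The membrane-bound protease Mmp14 was higher by 0.90 ± 0.05, Mmp10 by 0.89 ± 0.11 and the inhibitor Timp2 by 0.82 ± 0.05. Of 21 basement membrane genes 12 were higher and 2 lower (median 0.30), among them the collagen Col4a1 (1.14 ± 0.07) and the laminins Lama4 (0.95 ± 0.07) and Lama1 (0.94 ± 0.06). In the list of cadherins and the epithelial-mesenchymal transition, 14 of 25 were higher and 8 lower. The mesenchymal factors Twist2 (1.02 ± 0.10) and Snai2 (0.88 ± 0.08) were higher, and the tight junction protein Cldn4, with 9.82, 9.78 and 9.65 in adult Stra8 cells and 10.87, 10.78 and 10.82 in ES Stra8 cells, was lower (-1.07 ± 0.06).

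The list of extraembryonic endoderm and yolk sac held Srgn, Cubn, Lrp2 and Tspan8, and 26 of its 38 genes were higher and 3 lower (median 0.45). Several of its members are matrix genes that the fibroblast or basement membrane list also holds. The 9 members not called included the alpha-fetoprotein gene Afp (0.14), the transthyretin gene Ttr (0.19) and the apolipoprotein gene Apoa1 (-0.06). These were named after their values were seen and do not stand for the secreted proteins of the list. Other secreted members, such as Col4a1 (1.14), Fst (1.00) and Lama1 (0.94), were among those called higher. Of 13 endoderm transcription factors 6 were higher and 3 lower, with Gata4 higher by 0.86 ± 0.10 and Sox7 by 0.50 ± 0.08. Trophectoderm genes split into 7 higher and 3 lower of 20, and Tfap2c, a factor of trophoblast and of germ cell precursors, fell by 1.07 ± 0.06. Neural genes split into 5 higher and 3 lower of 26 (30.8% called, near the 28.3% over all genes). The neuronal tubulin Tubb3 was at -0.91 ± 0.09 and the transcription factor Pax6 at -0.77 ± 0.09.

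Signalling genes moved in both directions. In the LIF and Jak-Stat list, which holds the cytokine that sustains mouse ES cells, 5 of 12 were higher and 3 lower. The cytokine Il6 had 9.27, 9.28 and 9.14 in adult Stra8 cells and 7.84, 7.73 and 7.76 in ES Stra8 cells (1.46 ± 0.13). The receptor Osmr was higher by 0.93 ± 0.05 and Lif by 0.70 ± 0.07, and the feedback inhibitor Socs3 was lower (-0.37 ± 0.08). In the Wnt list 8 of 19 were higher and 2 lower, with Wnt5a, a ligand of mesenchyme, higher by 1.00 ± 0.07 and the antagonist Sfrp2 by 0.73 ± 0.07. Of 16 BMP genes 7 were higher, led by the antagonist Grem1 (0.79 ± 0.11), and 1 was lower, the inhibitor Id4 (-0.62 ± 0.06). Of 14 Nodal and activin genes 6 were higher, with the activin antagonist Fst higher by 1.00 ± 0.07 and the activin subunit Inhba by 0.95 ± 0.07, and 2 were lower. FGF genes split into 3 higher and 4 lower of 17.

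Hedgehog genes held the largest single decrease among the signalling lists. Hhip, which binds Hedgehog at the cell surface and is itself a target of the pathway, had 6.91, 7.08 and 6.99 in adult Stra8 cells and 8.35, 8.28 and 8.44 in ES Stra8 cells (-1.36 ± 0.12). Gli1, a further target, was lower by the same test (-0.73 ± 0.09). The coreceptor Boc (0.65 ± 0.06) and the transcription factor Gli3 (0.44 ± 0.05) were higher. Of 13 measured genes 5 were higher and 3 lower.

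Interferon-induced genes were more often higher than lower in adult Stra8 cells, by small amounts. Of 36 genes 19 were higher, 4 were lower and 13 were not called, with a median of 0.24. Lgals3bp, a secreted glycoprotein, had 10.86, 10.75 and 10.76 in adult Stra8 cells and 9.84, 9.76 and 9.82 in ES Stra8 cells (0.98 ± 0.05). Irf7, a factor that drives interferon production, was higher by 0.67 ± 0.09 and Ifi27 by 0.59 ± 0.06. The 1 member past 2-fold was lower, Trim12a (-1.78), and Irf1, a transcription factor of the response that was named after its value was seen, was lower too (-0.59). Of 15 genes of MHC class I presentation 3 were higher and 1 lower (26.7% called, near the 28.3% over all genes). B2m, the light chain of the complex, was higher by 0.54 ± 0.09. In the list of hypoxia and glycolysis 15 of 30 were higher and 2 lower (median 0.17). Its leading members were the peptide hormone Adm (0.92 ± 0.06), the collagen hydroxylase P4ha1 (0.85 ± 0.07) and lactate dehydrogenase, Ldha (0.68 ± 0.05). Stress and immediate-early genes split into 6 higher and 10 lower of 32. Respiratory chain genes split into 6 higher and 5 lower of 35 (31.4% called, near the share over all genes).

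Genes of DNA replication and mitosis were more often lower than higher. Of 31 genes 15 were lower, 4 were higher and 12 were not called, with a median of -0.15. Birc5, a subunit of the chromosomal passenger complex, had 9.24, 9.17 and 9.15 in adult Stra8 cells and 9.92, 9.88 and 9.91 in ES Stra8 cells (-0.72 ± 0.08), and its partner kinase Aurkb fell by 0.65 ± 0.05. Both lie on chromosome 11. Mcm6, a subunit of the replicative helicase on chromosome 1, was higher by 0.60 ± 0.06. With genes of chromosomes 1, 8 and 11 left out, 12 of 23 were lower and 2 higher (median -0.25). Of 18 cyclins and inhibitors of the first gap phase 7 were higher, 2 were lower and 9 were not called, with a median of 0.01 that changed sign with centred arrays and without ES Stra8 replicate 3. The inhibitor Cdkn1c was higher by 0.98 ± 0.07, the kinase Cdk6 by 0.76 ± 0.06, and the cyclins Ccnd1 by 0.66 ± 0.06 and Ccnd2 by 0.64 ± 0.05.

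Imprinted genes, which are read from 1 parental copy, changed in both directions. Of 22 paternally expressed genes 4 were higher and 8 lower, and of 24 maternally expressed genes 8 were higher and 5 lower. Igf2, a fetal growth factor read from the paternal copy, had 9.73, 9.58 and 9.51 in adult Stra8 cells and 8.44, 8.40 and 8.40 in ES Stra8 cells (1.19 ± 0.05, adjusted p = 3.52e-10). Mest, also paternal, had 9.98, 9.98 and 9.95 in adult Stra8 cells and 10.97, 10.86 and 10.95 in ES Stra8 cells (-0.96 ± 0.06). Parental copies were not read apart.

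Spermatogonial stem cell genes changed in both directions as well, with 5 higher, 7 lower and 14 not called of 26 (median -0.09). Thy1, a surface protein used to isolate these cells and also made by fibroblasts, was higher by 0.80 ± 0.06, and the GDNF receptor Gfra1 by 0.29 ± 0.09 (adjusted p = 0.0215). Ret, its partner in GDNF signalling, fell by 0.62 ± 0.10. Kit, the receptor of differentiating spermatogonia, was higher by 0.19 ± 0.06 (adjusted p = 0.0309), and Zbtb16, a factor of stem spermatogonia, was at -0.17 ± 0.08 (adjusted p = 0.121). The calls of Gfra1 and Kit were lost when single arrays were left out, with adjusted p from 0.0510 to 0.0667 for Gfra1 and from 0.0579 to 0.130 for Kit.

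Hox genes, which pattern the body axis, were higher in 15 of 37 cases and lower in 0, led by Hoxc6 (0.72 ± 0.09), Hoxc5 (0.60 ± 0.09) and Hoxc8 (0.59 ± 0.08). In the retinoid list 8 of 23 were higher and 1 lower. The retinaldehyde reductase Dhrs3 (0.88 ± 0.10) and Cyp26a1, which breaks down retinoic acid (0.62 ± 0.11), were higher, and Aldh1a2, which makes retinoic acid, was lower (-0.59 ± 0.09). Of the 9 Y-linked genes measured, Uty had 9.06, 8.98 and 8.86 in adult Stra8 cells and 7.68, 7.82 and 7.84 in ES Stra8 cells (1.18 ± 0.10). Eif2s3y had 9.84, 9.92 and 9.83 in adult Stra8 cells and 8.89, 8.80 and 8.82 in ES Stra8 cells (1.03 ± 0.11), Kdm5d was higher by 0.42 ± 0.12 and Zfy2 by 0.29 ± 0.10 (adjusted p = 0.0445), and 5 were not called. The call of Zfy2 was lost in 9 alternatives, 4 of which left out single arrays (adult Stra8 replicate 1 or 3, ES Stra8 replicate 2 or 3; adjusted p between 0.110 and 0.205), and that of Kdm5d without adult Stra8 replicate 1 (0.0603). Xist, the RNA of X inactivation, had 8.20, 8.12 and 7.97 in adult Stra8 cells and 7.51, 7.39 and 7.47 in ES Stra8 cells (0.64 ± 0.13). Markers of macrophages and blood were higher in 5 of 22 cases and lower in 1, those of endothelium in 3 and 3 of 15, and those of somatic testis cells in 5 and 1 of 18. The shares called were 27.3%, 40.0% and 33.3%, beside 28.3% over all genes.

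Differences were not spread evenly over the chromosomes. On chromosome 1, 427 of 1122 genes (38.1%) were higher and 23 (2.05%) lower in adult Stra8 cells, with a median of 0.15. On chromosome 8, 70 of 955 genes were higher and 312 (32.7%) lower (median -0.10), and on chromosome 11, 112 of 1563 were higher and 459 (29.4%) lower (median -0.07). The 3 chromosomes held 18.3% of the genes and 24.9% of the calls. They were singled out after these values were seen. Without them 2026 of the other 16298 genes were higher and 2209 lower in the same fit (26.0% called). Of the named genes Mael, Col5a2, Twist2, Mcm6 and Prdm14 lie on chromosome 1, with Prdm14 lower against its chromosome.

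The shift of these chromosomes was alike in the replicate arrays. Each gene above the median level was set against its mean over the undifferentiated groups of both backgrounds. The median of chromosome 1 then stood above that of the other chromosomes by 0.281, 0.263 and 0.255 in adult Stra8 arrays, and by -0.043, -0.050 and -0.046 in ES Stra8 arrays. Chromosome 8 stood at -0.117, -0.114 and -0.128 in adult Stra8 arrays and at 0.033, 0.034 and 0.029 in ES Stra8 arrays. For chromosome 11 the values were -0.118, -0.117 and -0.118 in adult Stra8 arrays and 0.026, 0.024 and 0.028 in ES Stra8 arrays. An exact permutation test (two-sided) of each gave p = 0.1, the smallest that 3 arrays against 3 allow, and so did 12 of the other 17 chromosomes, so the test does not set these 3 apart. Their differences were 0.313, -0.151 and -0.143, beside -0.034 to 0.056 on the other 17. Between adult and ES 129SV cells the differences were -0.146 on chromosome 1, 0.319 on chromosome 8 and 0.342 on chromosome 11. The ES 129SV means of chromosomes 8 and 11 were -0.115 and -0.124, near those of adult Stra8 arrays. Medians were also taken over genes above the median level in windows of 20 Mb that held at least 10 of them. The Stra8 difference was positive in all 10 windows of chromosome 1 (0.212 to 0.366). It was negative in all 7 of chromosome 8 (-0.23 to -0.145) and all 7 of chromosome 11 (-0.266 to -0.057). The 115 windows of the other chromosomes ran from -0.143 to 0.171. DNA copy number was not measured, and the cause of the shifts was not tested.

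**Figure D3:**
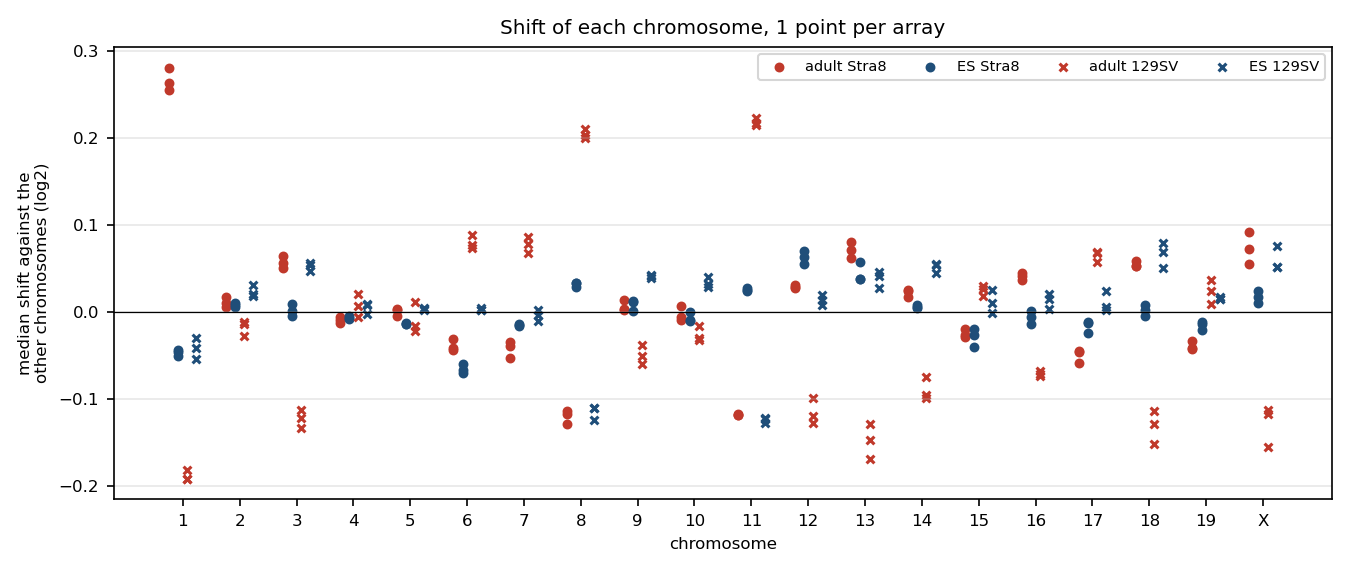
Median level of each chromosome's brighter genes against that of the other chromosomes (log2, vertical axis), 1 point per array, for adult Stra8 (red dots), ES Stra8 (blue dots), adult 129SV (red crosses) and ES 129SV (blue crosses) cells. Adult Stra8 arrays stand highest on chromosome 1 (0.255 to 0.281). On chromosomes 8 and 11 the adult Stra8 and the ES 129SV arrays both lie near -0.12, and the adult 129SV arrays lie above 0.

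The 129SV cells, in which adult and ES cells can be compared independently of these 6 arrays, mostly did not share the differences. There 9196 genes (46.1%) were called between adult and ES cells, and 8588 genes (43.1%) had an effect of origin that differed between the backgrounds. Of the 97 genes higher by 2-fold in adult Stra8 cells, 6 were also higher in adult 129SV cells, 76 were lower and 15 were not called. Of the 53 lower ones, 8 were also lower, 23 were higher and 22 were not called. Car4 alone was higher by 2-fold in both backgrounds, with means of 9.11 in adult 129SV and 8.10 in ES 129SV cells.

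For many of the 97 genes the order of origins was turned round. Each 129SV mean lay nearer to the Stra8 mean of the other origin for 53 of them. Both lay nearer to ES Stra8 cells for 31 and nearer to adult Stra8 cells for 11, and each lay nearer to its own origin for 2. Srgn had a mean of 8.45 in adult 129SV cells and 10.61 in ES 129SV cells, and Cubn 6.36 and 8.65 in the same groups. Tspan8 (6.40 in adult 129SV and 6.04 in ES 129SV cells) and Cyct (8.62 and 8.45) were near or below the ES Stra8 level in both. Adult Stra8 cells thus stood alone among the undifferentiated groups for these genes. In differentiated adult and ES 129SV cells the means were 13.63 and 13.32 for Srgn and 11.42 and 11.03 for Cubn. They were 11.6 and 10.86 for Tspan8, above adult Stra8 cells, and 7.90 and 7.15 for Cyct, below them. Of the 53 lower genes, 37 had both 129SV means nearer to adult Stra8 cells, so that ES Stra8 cells stood apart, as for the miRNAs of chromosome 12. The single region from Dlk1 to Dio3 holds 25 of the 53, and all 25 are among the 37. Most of the lower genes outside this region are not among the 37, so the pattern rests largely on 1 region. The fibroblast list had 2 genes higher and 23 lower in adult 129SV cells (median -0.70), the interferon list 1 higher and 33 lower, and naive pluripotency 9 higher and 9 lower. These counts are to be read beside the 46.1% of all genes called either way between adult and ES 129SV cells. The split of that share into higher and lower was not counted.

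**Figure D4:**
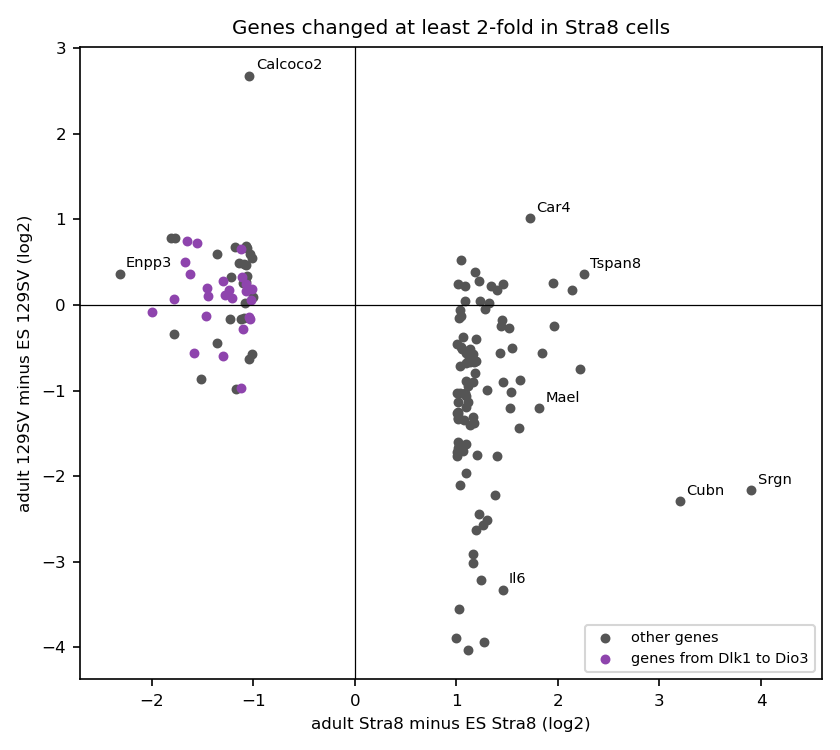
Difference of adult Stra8 minus ES Stra8 (log2, horizontal axis) against that of adult 129SV minus ES 129SV (log2, vertical axis) for the 150 genes changed at least 2-fold in Stra8 cells, with genes from Dlk1 to Dio3 in purple. Most points at the right lie below 0 (76 of 97 called opposite), Car4 is the one gene past 2-fold up in both, and the purple points cluster near 0 on the vertical axis.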

How the data were processed

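Total RNA was prepared with Trizol and DNase I, and 300 ng per array was biotin-labelled for Affymetrix Mouse Gene 1.0 ST arrays, per the labels' protocols. Per the submitters' processing notes, the authors used RMA and Affymetrix Expression Console (versions not given), and the deposited table holds its log2 values. RMA corrects background, gives the arrays a shared distribution and summarises probe sets, which hides differences in total RNA. The sources used here do not state if RMA was run on the 18 arrays at once. Values were used as deposited. Precision is limited by 3 arrays per group.

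The platform annotation supplied gene names. Among all 35556 probe sets 21789 carried 1 symbol, 1621 several and 12146 none. Of the named, 21698 matched RefSeq (GRCm38.p6). Of several probe sets of a gene (999 genes) the one with the highest mean was used.

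A linear model with 6 group means was fitted over the 18 arrays in limma 3.58.1 (R 4.3.3), with 12 residual and 3.78 prior degrees of freedom. P-values are two-sided and adjusted by Benjamini-Hochberg over 19938 genes. The same fit tested the difference of the origin effect between backgrounds. The code was tested on simulated data. Lists (38, with 809 of 892 genes measured) are described by counts and medians only. Chromosome shifts used genes above the median level. Genes were named by rule: the 15 largest increases and 15 largest decreases with arrays apart, up to 4 called genes with the largest difference per list, and 14 fixed genes. Of those, the text describes a selection, and exceptions are marked. Members, lists and rules were chosen with earlier results of these data known. Replicate numbers did not pair the arrays by their deviations (r = 0.122, -0.036 and -0.103). Alternatives covered scaling, arrays in the fit, weights, filters, probe set choice and single arrays left out.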

Additional observations from a re-analysis of the deposited data

Results flagged for a closer look

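Each of the 132 genes named was tested for an effect of origin that differs between the Stra8 and 129SV backgrounds, as the difference between adult and ES cells in Stra8 minus that in 129SV cells (log2, same limma fit). It was called for 117 of them at adjusted p of at most 0.0444, positive for 75 and negative for 42. Over all genes it was called for 43.1%. Most of these genes were named for a large difference in Stra8 cells, which the tested term contains, so their number is no evidence about the backgrounds. For 77 of them adult minus ES was called in both backgrounds with opposite signs. The SE and p of each are those of the interaction term, and no cause was tested.

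Among endocytic and surface genes the values were Srgn 6.07, Cubn 5.49, Lrp2 2.05, Dab2 2.30, Tspan8 1.90, Dpp4 2.73, Slco2a1 2.55 and Car4 0.71. Other large increases gave Pim2 2.41, Nxf7 3.05, 4930591A17Rik 2.50, Olfr836 2.97 and Nlrp4a 2.21. Germline and spermatogonial genes gave Mael 3.02, Hormad1 2.36, Sycp1 1.21, Cyct 1.97, Scml2 1.69, Sohlh2 2.04, Smc1b 1.99, Dazl 2.01, Ddx4 0.54, Gfra1 0.89, Thy1 1.07, Ret -0.65, Zbtb16 -0.38 and Id4 -0.57.

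Positive values also covered the mesenchymal and matrix genes Dcn 3.27, Lum 3.07, Col5a2 2.42, Acta2 1.04, Tagln 1.09, Twist2 2.34, Snai2 0.96, Adamts9 2.55, Mmp10 3.54, Mmp14 1.46, Timp2 1.38, Lama4 2.46, Lama1 1.42 and Col4a1 1.66. Interferon, hypoxia and cytokine genes gave Irf7 5.89, Lgals3bp 3.94, Ifi27 1.25, Irf1 -1.09, B2m 3.20, Adm 4.51, P4ha1 2.80, Ldha 1.37, Il6 4.78, Osmr 2.78, Lif 1.87 and Socs3 -0.37. Signalling genes gave Wnt5a 2.77, Sfrp2 0.47, Lef1 1.78, Grem1 2.34, Inhba 1.64, Fst 1.21, Fgf5 0.59, Boc 1.64, Gli3 0.28, Gli1 -1.14 and Hhip -1.95, and cell cycle genes Cdkn1c 1.91, Cdk6 1.24, Ccnd2 1.55, Mcm6 0.57, Aurkb -1.42 and Birc5 -1.81.

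Pluripotency and epiblast genes gave Nanog -0.64, Zfp42 -0.99, Prdm14 -0.96, Dppa4 -1.28, Tet2 -0.25, Dnmt3b 1.69, Dnmt3a -0.74 and Zic2 0.72. Lineage, Hox and retinoid genes gave Gata4 1.41, Sox7 0.97, Tfap2c -1.76, Cldn4 -1.34, Tubb3 -2.74, Pax6 -1.64, Hoxc6 1.13, Hoxc5 0.76, Dhrs3 2.39, Cyp26a1 0.61 and Aldh1a2 -0.36. Imprinted and sex chromosome genes outside the Dlk1-Dio3 region gave Igf2 1.85, Mest -2.46, Xist 1.84, Uty 1.98, Eif2s3y 1.18 and Kdm5d 0.96.

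In the Dlk1-Dio3 region the values were Meg3 -1.29, Rtl1 -1.14, Dlk1 0.81, Dio3 -0.44, Mir376c -1.92, Mir376a -1.85, Mir376b -1.39, Mir541 -2.17, Mir495 -2.40, Mir377 -1.98, Mir382 -1.02, Mir379 -2.28, Mir411 -0.81, Mir369 -1.34, Mir154 -1.65, Mir300 -1.55, Mir494 -0.60 and Mir666 -0.37. The other large decreases gave Enpp3 -2.68, Pnma5 -2.60, AU015836 -2.55 and Trim12a -1.43. The values of Tet2 and Aldh1a2, and that of Sycp3 (-0.65, adjusted p = 0.0504, not called), lie near the threshold, and some alternatives change their call. The call was lost by Mir494 in 7 alternatives, by Dio3 in 4 and by Mir411 in 3, and gained by Klf4 in 8, by Ccnd1 in 6 and by Cycs in 3.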

How the results depend on the processing

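The counts kept within 1.5 times their values under most of the alternatives tried. Of the 5638 genes called (2635 higher, 3003 lower), array weights gave 8690, with 4000 higher and 4690 lower. The cause was not tested. Leaving out the genes from Dlk1 to Dio3, an alternative chosen after seeing the data, left 28 genes lower by 2-fold in place of 53, since the others lie in that region. Leaving out single arrays gave 4550 to 4917 genes called, 2180 to 2336 higher and 2249 to 2737 lower. It gave 144 to 162 genes changed at least 2-fold, 87 to 114 higher and 48 to 57 lower. Replicate numbers only name the arrays, since the deviations of same-numbered arrays did not correlate in every pair, and with the replicate block 5589 genes were called. The 150 genes changed at least 2-fold were still called in every alternative that measured them, and 136 to 150 of them kept a 2-fold difference where all 150 were measured. Centring each array on its median moved the share of calls that were higher to 41.6%, and quantile normalization to 53.2%, from 46.7%. Among the named genes no called difference changed sign under any alternative, but 4 uncalled ones did, those of Apoa1 (0.045 and 0.003 without replicate 2 of ES Stra8 or of adult Stra8), Stra8 (-0.16 without ES Stra8 replicate 1), Pou5f1 (0.002 without ES Stra8 replicate 3) and Cycs (-0.004 with the mean of probe sets). Besides Sox2, Gfra1, Kit and Zfy2, the call of Kdm5d was lost without adult Stra8 replicate 1 (adjusted p = 0.0603), that of Kit also with centred arrays (0.0956), and Zbtb16 was called with array weights (0.0312), Dlk1 in 3 alternatives and Dio3 in 2. Calls of Inhbb, Pramel7 and Tek, chosen by the naming rule but not described, were lost when single arrays were left out. The medians of the lists of fibroblast, naive pluripotency, primed epiblast, germline, interferon and mitosis genes kept their sign in all alternatives. Those of the FGF, Hedgehog, Polycomb, respiratory chain and first gap phase lists, which lie near 0, changed sign with centred arrays, and those of the Jak-Stat, Nodal, cholesterol, endothelium and neural lists under other alternatives. No background level was available, so how far dim genes limit the results was not tested, but 124 of the 150 genes were kept when dim genes were left out.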
